A study of Mus musculus with 6 samples.

Results

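The let-7 and miR-98 microRNAs were followed in small RNA libraries labelled as extracellular vesicle RNA of melan-alpha, an established line of pigmented mouse melanocytes. Every row of the deposited table with a mouse let-7 name, or with the mouse name miR-98, was taken, whatever its arm, copy or end form. This gave 20 of 1560 rows, of which 506 carry a mouse name. 3 libraries came from Mitf_OE cells, in which mouse Mitf had been delivered by lentivirus, and 3 came from Mitf_control cells. Both groups were grown in RPMI 1640 with 10% fetal bovine serum. MITF is the master regulator of pigment cell genes. The labels do not say what the control cells received, whether the overexpressing cells are a clone or a pool, or whether replicates are separate cultures, so the p-values reflect the spread among these libraries alone, part of which may be technical. The labels name vesicles as the source, whereas the extraction text describes collected and washed cells, and the Mitf transcript itself is not measured by this assay.

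Let-7 microRNAs repress growth and fetal genes such as Lin28, Hmga2, Myc and Ras, and they accumulate as cells differentiate. The members are read from many precursors but share a seed, the bases near the 5′ end that pair with targets, so that they act on largely the same messages. LIN28 binds the loop of let-7 precursors, at a GGAG motif in several of them, and blocks their maturation. Terminal uridylyl transferases add uridines to the 3′ end of the same precursors, a long tail leading to decay and a single uridine helping Dicer to cut.

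The mature 5p sequences below, from RefSeq on GRCm38.p6, show how close the members are, with the seed at bases 2 to 8 in capitals.
let-7a-5p: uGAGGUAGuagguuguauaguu
let-7b-5p: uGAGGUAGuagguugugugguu
let-7c-5p: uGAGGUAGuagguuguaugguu
let-7d-5p: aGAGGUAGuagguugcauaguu
let-7e-5p: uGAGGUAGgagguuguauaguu
let-7f-5p: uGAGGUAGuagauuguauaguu
let-7g-5p: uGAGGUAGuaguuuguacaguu
let-7i-5p: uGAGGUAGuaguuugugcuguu
miR-98-5p: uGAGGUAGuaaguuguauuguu
All 9 are 22 bases long and carry the seed GAGGUAG. Counted from 1 at the 5′ end and written with the base of let-7a-5p first, let-7c-5p differs by A19G, let-7e-5p by U9G and let-7f-5p by G12A. Let-7b-5p differs by A17G and A19G, let-7g-5p by G12U and U18C, let-7d-5p by U1A and U16C, and miR-98-5p by G11A and A19U. Let-7i-5p is the farthest from let-7a-5p, with G12U, A17G, U18C and A19U. A single sequencing error can thus turn one member into another, and reads of let-7a, let-7b, let-7c, let-7e and let-7f are the most exposed, being one base from a relative, to this.

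The rows do not all measure what their names say. The row named as let-7a-5p with a change at base 19 has the sequence of let-7c-5p, and both rows hold the same value in every library. Over all rows, 28 sequences are shared by more than one row, and the rows of a sequence held equal values in all 88 library values above 0. Where those values were not whole, in 57 cases, they summed to a whole number in 42, to within 0.01 reads, which is how a read divided evenly among rows would look. The let-7c-5p pair did not sum to a whole number in any library. Members whose sequence stands in a single row were not whole either, such as let-7a-5p, at 4842.83 reads in MITF overexpression replicate 1, and let-7g-5p, at 11134.53 there. Member levels and shares thus rest on a division of reads that the sources used here do not describe. Being of one sequence, the pair of let-7c-5p rows was added together below for levels and shares, whereas the tests of single rows kept both. The only row with a let-7j name has a sequence that matches no let-7 hairpin over its whole length. It is let-7i-5p with an extra A where the let-7i hairpin goes on with G, and it lacks the base that sets let-7j apart in the seed. It is called the longer form of let-7i-5p here. No row of the table carried a let-7k name.

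The 3p arms showed a second kind of end. Of 8 rows from 3p arms, 4 end in T at a base where the mouse hairpin has C, and the other 4 match a hairpin to their last base. The rows below are shown as deposited, with the last base in capitals.
let-7a-1-3p, end variant: ctatacaatctactgtctttcT
let-7a-1-3p, as annotated: ctatacaatctactgtctttcC
let-7b-3p, end variant: ctatacaacctactgccttccT
let-7f-1-3p, end variant: ctatacaatctattgccttccT
let-7f-2-3p, end variant: ctatacagtctactgtctttcT
longer form of let-7i-5p: tgaggtagtagtttgtgctgttA
For comparison, the hairpins of let-7a-1 (chr13:48538179-48538272, minus strand) and let-7i (chr10:122985640-122985724, minus strand) in RefSeq on GRCm38.p6 are printed with the mature arms in capitals, so that the bases after each arm can be read.
let-7a-1 hairpin: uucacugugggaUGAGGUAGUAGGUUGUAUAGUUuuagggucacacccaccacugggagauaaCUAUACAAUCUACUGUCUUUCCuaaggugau
let-7i hairpin: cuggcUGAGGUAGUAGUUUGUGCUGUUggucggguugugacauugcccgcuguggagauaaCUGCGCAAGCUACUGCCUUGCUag
The annotated let-7a-1-3p is also the annotated let-7c-2-3p, letter for letter, so the row cannot be tied to either precursor. The remaining row of the family, 23 bases named after the p3 side of let-7e, is no mature arm. It covers the whole stretch of the let-7e hairpin between the annotated arms and holds GGAG, in capitals here.
let-7e loop: gaggaagacacccgaGGAGatca

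The precursors lie at many places in the genome (GRCm38, gene models of GENCODE M21, whereas the submitters' processing notes name mm9). Let-7a-1, let-7f-1 and let-7d sit within an exon of the non-coding gene 6720427I07Rik on chromosome 13, from 48536012 to 48538272. Let-7c-2 and let-7b lie 621 bases apart within an exon of Lncppara on chromosome 15, from 85706603 to 85707403. Let-7f-2 and miR-98 lie 785 bases apart in an intron of Huwe1 on chromosome X, from 151912346 to 151913321. Let-7g lies in an intron of Wdr82 on chromosome 9, from 106178840 to 106178927, and let-7e in an intron of Spaca6 on chromosome 17, from 17830352 to 17830444. Let-7i lies in an exon of D630033A02Rik on chromosome 10, from 122985640 to 122985724. Let-7c-1 lies in an intron of Mir99ahg on chromosome 16, from 77599657 to 77599750, 656 bases from miR-99a, and let-7a-2 lies on chromosome 9, from 41536716 to 41536811, 5211 bases from miR-100.

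The family was one of the main contents of these libraries. It held 16.7%, 17.8% and 18.3% of tabulated reads under MITF overexpression, against 19.5%, 15.9% and 18.8% in controls, and the groups overlapped. Tabulated reads numbered 279142 to 448969 per library with MITF overexpression and 342941 to 475977 in controls. Levels are given below as CPM, reads scaled to a common library total by the TMM method, which corrects library totals for a few very abundant rows. Summed over all 20 rows the family stood at 171281, 168882 and 163892 CPM with MITF overexpression, against 218336, 158145 and 201815 CPM in controls. Control replicate 2 lay below all libraries with MITF overexpression and the other controls above them. The ratio of the means was 0.872, or -0.20 on the log2 scale, and it was -0.10 without control replicate 1 and -0.32 without control replicate 2. The sign of that value depended on the scaling, being 0.018 with upper-quartile scaling.

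Nearly all of these reads came from 5p arms. In order of their control means, let-7c-5p led, followed by let-7b-5p, let-7g-5p, let-7i-5p, let-7f-5p, let-7d-5p, let-7a-5p, the longer form of let-7i-5p, let-7e-5p and miR-98-5p. With its rows added, let-7c-5p had the highest mean over the 6 libraries of all mouse-named sequences, though miR-122-5p was above it in the mean with MITF overexpression. It stood at 49334, 46498 and 44273 CPM with MITF overexpression, against 58645, 38816 and 54438 CPM in controls. Let-7b-5p, encoded beside let-7c-2, stood at 31135, 36488 and 31848 CPM with MITF overexpression, against 43230, 25597 and 39171 CPM in controls. For both, control replicate 2 was the lowest of the 6 libraries and the groups overlapped. Let-7c-5p was above let-7b-5p in all 6 libraries, and let-7b-5p above let-7g-5p in 5. Let-7f-5p was above let-7d-5p in 5 of 6, and let-7d-5p above let-7a-5p in 5 of 6, so these neighbours are close to one another.

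**Figure D1:**
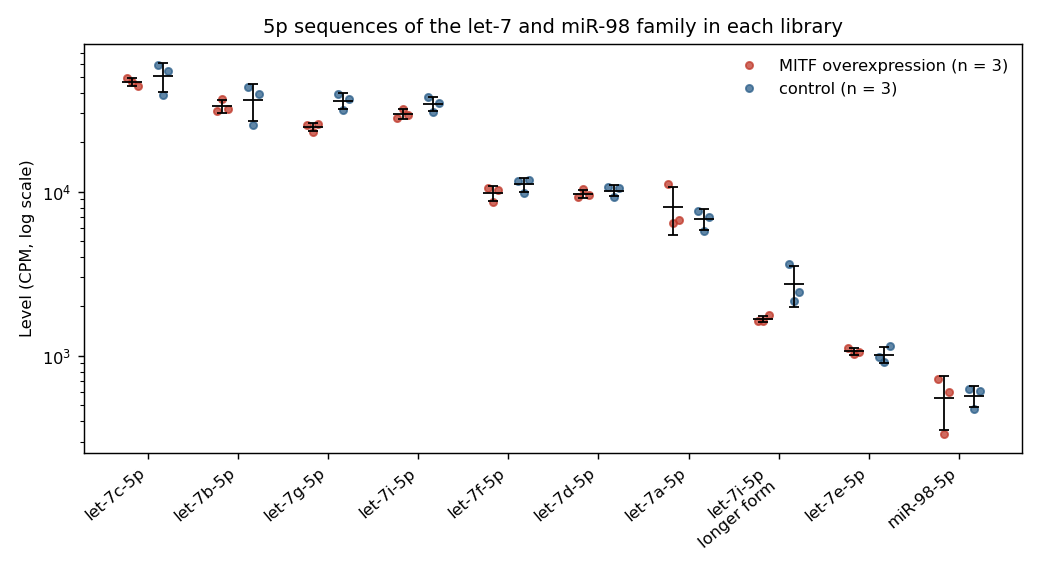
Level of each 5p sequence (CPM, log axis) in the 3 libraries with MITF overexpression (left, red) and the 3 controls (right, blue), with the mean and SD as black marks. Let-7c-5p is the most abundant and miR-98-5p the least, and the points of the groups stand apart for let-7g-5p and the longer form of let-7i-5p.

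The comparison of MITF overexpression with control asks whether vesicle let-7 differs when MITF is raised. Of the 20 rows, 17 passed the filter on low counts. Both equal rows of let-7c-5p are among them, so that sequence is counted in each. None of the 17 was called higher or lower by edgeR's quasi-likelihood test at an adjusted p of 0.05 over all 441 tested rows, of which 15.2% were called, 9.98% higher and 5.22% lower. 3 of the 17 had an unadjusted p under 0.05, against 34.5% of all tested rows. Limma-voom called none of the 17 either, where it called 17.9% of all tested rows. DESeq2 called 2 of the 17 lower, a share near the 9.75% of all tested rows that it called lower. The median log2 fold change of the 17 was -0.12, beside 0.08 over all tested rows and -0.07 over those with a mouse name. Of the 17, 5 log2 fold changes were positive and 12 negative. Rows of one sequence were also summed, a choice made after seeing the data. In that fit 16 member rows were tested, edgeR called none of them and their median log2 fold change was -0.12. The libraries of the groups did not overlap in 4 of the 17, all lower with MITF overexpression, where 17.2% of all tested rows did so. None lay higher without overlap, where 25.2% of all tested rows did, so that 42.4% of them did not overlap in one direction or the other. Most members are abundant, and abundant rows leaned lower with MITF overexpression: of the 100 tested rows with a mean over 1000 CPM, 37% lay lower without overlap, and their median log2 fold change was -0.27. Of the 11 member rows among them 3 did so and their median was -0.12. The bound of 1000 CPM was chosen after values had been seen. The 95% interval of the log2 fold change lay within 1 of 0 for 11 of the 17 rows, so that a doubling or halving lies outside it for those.

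**Figure D2:**
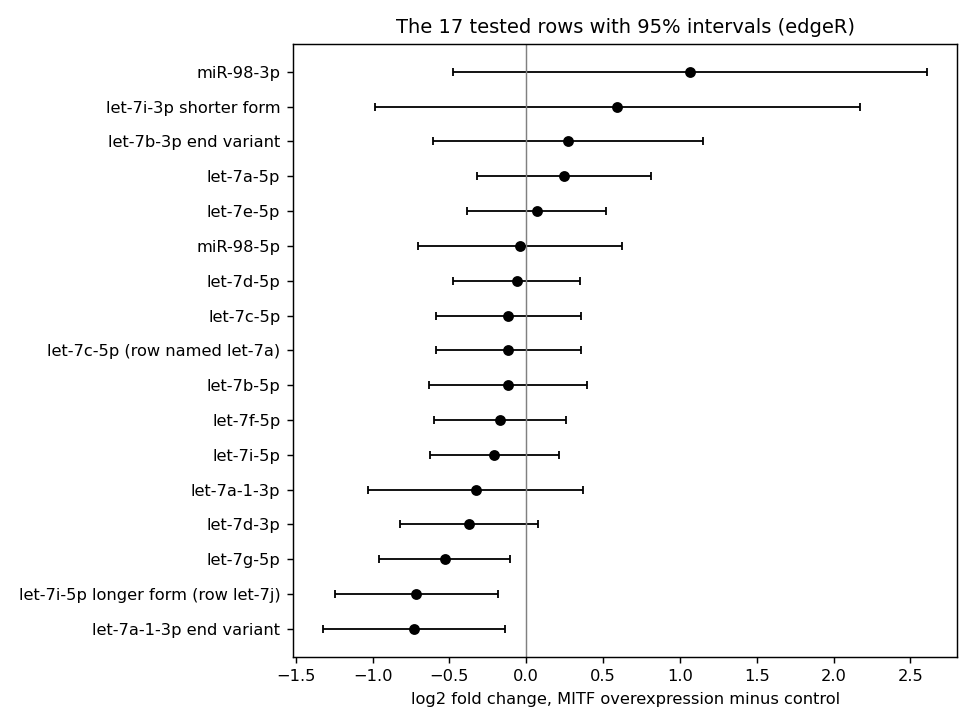
Log2 fold change of the 17 tested rows, MITF overexpression minus control, with 95% intervals from edgeR. The intervals of 14 rows include 0, and those of let-7g-5p, the longer form of let-7i-5p and the end variant of let-7a-1-3p lie below it without passing the adjusted test.

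Let-7g-5p, the product of the Wdr82 intron, was the only one of the 7 most abundant 5p sequences whose groups lay apart. It stood at 25456, 23045 and 25797 CPM with MITF overexpression, against 39533, 31426 and 36430 CPM in controls. Every library with MITF overexpression lay below every control. The log2 fold change was -0.53 ± 0.19 (SE, 95% interval -0.96 to -0.11), with an adjusted p of 0.0812 by edgeR. DESeq2 called it lower, with an adjusted p of 0.0152, and over all alternatives run the adjusted p ranged up to 0.313, with upper-quartile scaling. The authors' deposited table lists a fold change of 0.709 and an unadjusted p of 0.0358 for it.

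Let-7i-5p, which differs from let-7g-5p by few bases, did not separate the groups. It stood at 27941, 31838 and 29246 CPM with MITF overexpression, against 37558, 30610 and 34594 CPM in controls, with a log2 fold change of -0.21 ± 0.19 and an adjusted p of 0.493 by edgeR. The ratio of let-7g-5p to let-7i-5p reads does not depend on scaling between libraries. It was 0.911, 0.724 and 0.882 with MITF overexpression, against 1.05, 1.03 and 1.05 in controls. Let-7i-5p was thus the more abundant of the pair in each library with MITF overexpression and let-7g-5p in each control. A two-sided exact permutation test gave p = 0.1, its minimum for 3 libraries against 3, and the pair was chosen after its values had been seen.

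The longer form of let-7i-5p had the lowest adjusted p of the family. It stood at 1625, 1635 and 1772 CPM with MITF overexpression, against 3649, 2169 and 2448 CPM in controls. The groups did not overlap, and control replicate 1 was the highest. The log2 fold change was -0.72 ± 0.24 (95% interval -1.24 to -0.19), with an adjusted p of 0.0636 by edgeR. It was called lower by DESeq2, with an adjusted p of 0.0278, among mouse-named rows alone, with 0.0438, and when scaling ignored the row with most reads, with 0.0436. Those last fits called 8.04% and 6.8% of all their rows lower. EdgeR did not call it with total-count scaling, with an adjusted p of 0.127, or with upper-quartile scaling, with 0.187. Nor did it with the replicate number as a block, with 0.123. Leaving out 1 library gave adjusted p from 0.0856 to 0.188, the highest being without control replicate 1.

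Let-7f-5p, made from precursors on chromosomes 13 and X, and let-7d-5p, from the chromosome 13 cluster, were close in level in both groups. Let-7f-5p stood at 10560, 8687 and 10218 CPM with MITF overexpression, against 11600, 9815 and 11753 CPM in controls. Let-7d-5p stood at 9250, 10352 and 9580 CPM with MITF overexpression, against 10655, 9262 and 10536 CPM in controls. Their log2 fold changes were -0.17 and -0.06, with 95% intervals of -0.60 to 0.26 and -0.48 to 0.35, and adjusted p of 0.598 and 0.869 by edgeR. Both groups overlapped for each. The intervals of let-7c-5p, -0.59 to 0.36 in each of its rows, and let-7b-5p, -0.63 to 0.40, also spanned 0, with adjusted p of 0.760 and 0.778. With its rows summed, let-7c-5p had a log2 fold change of -0.12 and an adjusted p of 0.726 by edgeR.

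Let-7a-5p can come from let-7a-1, in the chromosome 13 transcript with let-7d and let-7f-1, or from let-7a-2 on chromosome 9. It rested on one library. It stood at 11072, 6404 and 6683 CPM with MITF overexpression, against 7654, 5717 and 7036 CPM in controls. Replicate 1 with MITF overexpression was above all other libraries and the rest overlapped. The log2 fold change was 0.24 ± 0.25, with an adjusted p of 0.558 by edgeR, and it was -0.08 without that replicate. The same library held the liver microRNA miR-122-5p at 102960 CPM, against 30121 and 22727 CPM in the other libraries with MITF overexpression and 9906, 8848 and 16385 CPM in controls. The endothelial miR-126a-3p stood at 7771 CPM there and at 1540 to 2084 CPM in the other 5 libraries. Their part in the level of let-7a-5p was not tested.

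Let-7e-5p, the only mature member whose sequence holds GGAG, and miR-98-5p were the scarcest. Let-7e-5p stood at 1120, 1021 and 1050 CPM with MITF overexpression, against 981, 920 and 1145 CPM in controls. MiR-98-5p stood at 718, 332 and 605 CPM with MITF overexpression, against 624, 472 and 612 CPM in controls. Neither separated the groups, with log2 fold changes of 0.07 and -0.04 and adjusted p of 0.869 and 0.940 by edgeR. GGAG or CCCT, motifs described in human cells for export into vesicles, were searched on the strand as deposited and occurred in 2 of the 20 rows, let-7e-5p and the let-7e loop, and in 17.9% of all 1560 rows.

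Shares within the family are free of scaling between libraries, and the widest difference among them was that of let-7g-5p. It made up 14.9%, 13.6% and 15.7% of family reads under MITF overexpression, against 18.1%, 19.9% and 18.1% in controls. The difference of means was -3.93 percentage points, and between -4.42 and -3.33 with any library left out. The longer form of let-7i-5p was also lower in share, at 0.949%, 0.967% and 1.08% with MITF overexpression, against 1.67%, 1.37% and 1.21% in controls. Let-7c-5p, at 28.8%, 27.5% and 27.0% with MITF overexpression, against 26.9%, 24.5% and 27.0% in controls, was higher by 1.66 percentage points, or 0.867 without control replicate 2, and its nearest libraries were almost equal.

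Let-7a-5p and let-7e-5p also had higher shares in every library with MITF overexpression than in any control. For let-7a-5p the shares were 6.46%, 3.79% and 4.08% with MITF overexpression, against 3.51%, 3.61% and 3.49% in controls, and the difference of 1.24 percentage points was 0.40 without MITF overexpression replicate 1. For let-7e-5p they were 0.654%, 0.604% and 0.641% with MITF overexpression, against 0.449%, 0.582% and 0.568% in controls, a difference of 0.1003 percentage points that was 0.058 without control replicate 1. Shares must add up, so a lower share of one member raises the others. For these 5 of 10 sequences the two-sided exact permutation p was 0.1, the smallest possible, and 0.2 adjusted over the 10. In CPM, a different measure, 42.4% of all tested rows did not overlap in one direction or the other. The shares of let-7b-5p, let-7d-5p, let-7f-5p, let-7i-5p and miR-98-5p overlapped between groups.

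**Figure D3:**
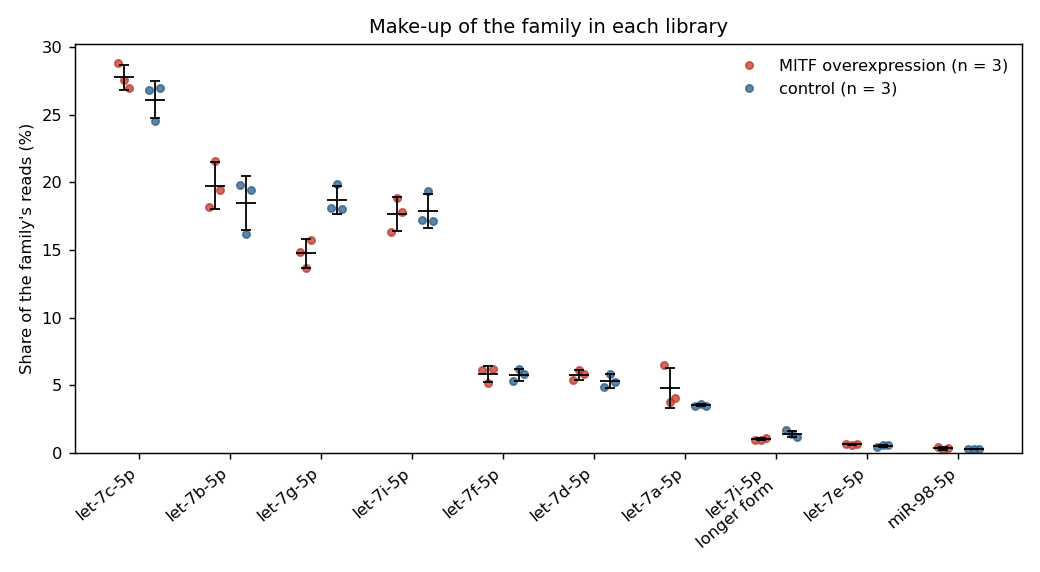
Share of the family's reads (%) taken by each 5p sequence in the 3 libraries with MITF overexpression (left, red) and the 3 controls (right, blue), with the mean and SD as black marks. Let-7g-5p lies between 13.6% and 15.7% with MITF overexpression and between 18.1% and 19.9% in controls.

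Passenger strands, the 3p arms that are mostly discarded when the microRNA is loaded, made up a small part of the family. With the let-7e loop they held 1.79%, 1.53% and 1.72% of family reads under MITF overexpression, against 1.93%, 2.11% and 1.81% in controls, without overlap. Let-7d had the most reads among them. Its 3p arm made up 17.6%, 14.1% and 14.7% of let-7d reads under MITF overexpression, against 19.01%, 17.9% and 18.6% in controls. In level, let-7d-3p stood at 1977, 1703 and 1655 CPM with MITF overexpression, against 2501, 2015 and 2407 CPM in controls. These groups did not overlap, and the log2 fold change was -0.38 ± 0.20 with an adjusted p of 0.223 by edgeR. The 3p arm of miR-98 varied widely, at 7.92%, 19.7% and 5.91% of miR-98 reads under MITF overexpression, against 2.55%, 8.12% and 4.24% in controls, and the groups overlapped. By contrast, the 3p arm of let-7i was at most 0.283% and that of let-7b at most 0.426% of their reads in any library.

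The end variant was the main form of let-7a-1-3p. It made up 79.0%, 75.6% and 79.6% of the reads of the 2 let-7a-1-3p rows with MITF overexpression, against 83.5%, 84.5% and 79.8% in controls. The groups did not overlap by a margin smaller than the counting error, since the 95% Wilson intervals of the nearest pair were 74.7% to 83.6% in MITF overexpression replicate 3 and 75.9% to 83.3% in control replicate 3. The variant stood at 629, 441 and 728 CPM with MITF overexpression, against 1262, 907 and 822 CPM in controls. Its log2 fold change was -0.73 ± 0.27, with an adjusted p of 0.0835 by edgeR, and -0.49 without MITF overexpression replicate 2. The annotated form stood at 164.6, 142.5 and 187.1 CPM with MITF overexpression, against 248, 167 and 208 CPM in controls, with a log2 fold change of -0.33 ± 0.31 and an adjusted p of 0.509. For let-7b, let-7f-1 and let-7f-2 only the variant was listed.

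The longer form of let-7i-5p, taken as a share of let-7i-5p with and without the extra A, was 5.50%, 4.88% and 5.71% with MITF overexpression, against 8.85%, 6.62% and 6.61% in controls. The 95% Wilson intervals of the nearest pair were 5.29% to 6.17% in MITF overexpression replicate 3 and 6.238% to 6.999% in control replicate 3. These intervals of the nearest pair did not overlap, unlike those of the let-7a-1-3p end variant, the let-7d 3p arm and the family's 3p arms with the loop. For the longer form of let-7i-5p the difference of means was -1.995 percentage points and -1.25 without control replicate 1. The two-sided exact permutation p was 0.1 for each of the 4 arm and end shares that did not overlap, of 8 compared, and 0.2 adjusted over the 8. This test was not planned, and the 8 shares are not independent, since some hold the same reads. Among all tested rows, 42.4% did not overlap in CPM, in one direction or the other. Wilson intervals cover counting error only, since reads carry no molecular identifiers. They were computed on rounded values and do not cover the spread of replicates or how reads were divided between rows.

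**Figure D4:**
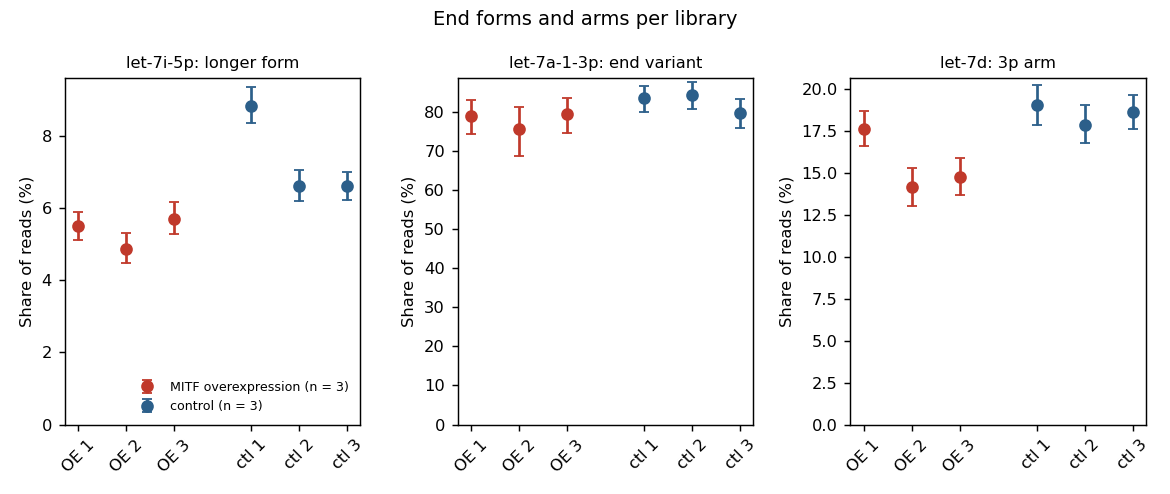
Share of reads (%) per library with 95% Wilson intervals, for the longer form of let-7i-5p, the end variant of let-7a-1-3p and the 3p arm of let-7d, with MITF overexpression (red, left) and controls (blue, right). The longer form of let-7i-5p lies between 4.88% and 5.71% with MITF overexpression and between 6.61% and 8.85% in controls.

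The remaining 3p rows were low and uncertain. MiR-98-3p was read 27, 24 and 13 times in libraries with MITF overexpression, against 5, 16 and 12 times in controls, with a log2 fold change of 1.07 ± 0.69 and an adjusted p of 0.316 by edgeR. Let-7i-3p was read 25, 28 and 8 times with MITF overexpression, against 8, 22 and 14 times in controls. The let-7b-3p variant was read 54, 24 and 45 times with MITF overexpression, against 27, 42 and 36 times in controls. Both overlapped between groups, with adjusted p of 0.617 and 0.684. The 3 rows too low to test were the variants of let-7f-1-3p and let-7f-2-3p and the let-7e loop, none of which passed 15 reads in a library. The let-7e loop was read 10, 8 and 7 times with MITF overexpression, against 8, 0 and 15 times in controls. No difference in these rows was detectable at this depth.

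MicroRNAs encoded near let-7 precursors were listed in 8 tested rows named miR-99a, miR-99b, miR-100, miR-125a and miR-125b, and edgeR called none of them. Of all tested rows it called 15.2%. MiR-125b-5p, with a precursor 45114 bases from let-7a-2, stood at 1438, 1516 and 1269 CPM with MITF overexpression, against 883, 1069 and 937 CPM in controls. Its log2 fold change was 0.55 ± 0.20, with an adjusted p of 0.0889 by edgeR. Of the 8 rows it was the only one with an unadjusted p under 0.05. MiR-125b-2-3p, the passenger arm of a miR-125b precursor, lay the other way without overlap, at 130, 146 and 87.7 CPM with MITF overexpression, against 213, 177 and 160 CPM in controls, with a log2 fold change of -0.59 ± 0.35 and an adjusted p of 0.256. MiR-99a-5p, 656 bases from let-7c-1, shares its row sequence with a row named miR-100, and each stood at 13177, 8806 and 10308 CPM with MITF overexpression, against 9085, 10120 and 9836 CPM in controls. The name of the miR-100 row marks a change at base 16. That sequence is thus counted in each of these rows, and none of the 8 rows measures miR-100 itself. MiR-125a-5p, which lies 367 bases from let-7e, had a log2 fold change of 0.08 ± 0.20 and an adjusted p of 0.855. The rows of miR-99b-5p, miR-99b-3p and miR-125a-3p overlapped between groups, with log2 fold changes of -0.07, -0.09 and -0.05.

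Likeness to the family over the 6 libraries was measured as the root-mean-square difference of log2 CPM, after each profile was centred on its own mean. Among 268 tested mouse-named rows outside the family the closest were miR-330-3p at 0.105, miR-30a-3p at 0.123, miR-7a-5p at 0.130, miR-92a-3p at 0.139 and miR-423-3p at 0.144, where the median row was at 0.452. Within the family, let-7c-5p was at 0.0688 and let-7i-5p at 0.0843, whereas let-7g-5p was at 0.187 and let-7a-5p at 0.311. Family members add to the sum they are compared with, and the most abundant add most.

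No row with a cow name carried a let-7 name or the let-7 seed, although the cells grew in bovine serum. Mature let-7 sequences are the same in cow and mouse for most members, so that reads of bovine origin would be listed under mouse names and cannot be told apart from mouse reads here. Markers of other cell types differed between the groups. The counts of called rows below stand beside 9.98% of all 441 tested rows called higher by edgeR. With MITF overexpression 4 of 8 tested blood cell rows were called higher, with a summed level of 4853 to 8838 CPM, against 1661 to 2583 CPM in controls. The liver marker summed to 22730 to 103000 CPM with MITF overexpression, against 8848 to 16380 CPM in controls. 3 of 5 mesenchymal rows were called higher, at 6136 to 7780 CPM, against 4426 to 5130 CPM, and neither endothelial nor epithelial rows were called. The 3 tested rows of the melanocyte markers miR-211 and miR-204 were all called higher, at 4565 to 5946 CPM, against 1976 to 2771 CPM. Reads matching mRNA made up 4.12% to 4.59% of raw reads under MITF overexpression, against 2.13% to 3.65% in controls. Reads matching rRNA lay the other way, at 5.68% to 6.50% of raw reads under MITF overexpression, against 6.65% to 7.55% in controls. The part of these differences in the let-7 values was not tested.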

How the data were processed

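The members, lists and comparisons were chosen with earlier results of these data known. In the deposited table each row is a sequence under a name, with a column headed raw for each library. Its values need not be whole and were taken here as estimated counts of reads. How reads were divided among rows is not described in the sources used here. Per the file headers the table also holds a normalized signal, obtained by scaling the estimated counts with a single factor for each library, group means, a ratio of the means as fold change, its log2 and an unadjusted p-value by the authors. A further table holds the authors' count and percent of raw reads in each read class, with 10030115 to 16275268 raw reads per library. 4 empty lines were not used. The submitters' processing notes name the build mm9. How reads were aligned was not given in the sources used here.

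Estimated counts were rounded and tested in R 4.3.3 by the quasi-likelihood method of edgeR 4.0.16, after TMM scaling and filterByExpr (minimum count 10), with group as the only term, adjusted by Benjamini-Hochberg over 441 rows at 0.05. The standard error is the log2 fold change divided by the square root of F, and 95% intervals use the test's degrees of freedom. Shares were compared by two-sided exact permutation tests in scipy 1.17.1. Alternatives were other scalings, no filter, mouse-named rows only, summed rows, DESeq2 1.42.0, limma-voom (limma 3.58.1), a replicate block and leaving out each library. The scripts were tested on simulated counts. Every tested member is given, together with neighbouring microRNAs and the 5 rows most like the family. Sequences come from RefSeq and the deposited rows.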

Additional observations from a re-analysis of the deposited data

Results flagged for a closer look

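Rows outside the family were searched only if they had a let-7 name or the let-7 seed. The search was for reads with MITF overexpression that were absent from controls, not the reverse. Among those rows, 2 low ones had more than 3 reads in a library with MITF overexpression and 0 in every control. They showed signal in rows the comparison does not use. A row named after a let-7a-3p of another mammal, with a pair of substitutions, was read 17 times in the first library with MITF overexpression, against 0 times in each of the other 5. A predicted sequence that holds the let-7 seed was read 8 times in replicate 2 with MITF overexpression, and was at 0 elsewhere. Groups of 3 libraries are too small for a test of outlying libraries.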

How the results depend on the processing

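The count of let-7 and miR-98 rows called higher was 0 under every alternative. The count called lower was 0 in the main fit, with any library left out and under all but the following alternatives. It was 1 when scaling ignored the row with most reads (30 of all 441 rows), 1 with mouse-named rows only (23 of 286) and 2 with the DESeq2 Wald test (43 of 441). For the tested members the median of the log2 fold changes, -0.12, was 0.058 with total-count scaling and 0.10 with upper-quartile scaling, which moved the median of all tested rows to 0.24 and 0.29, and ran from -0.25 without control replicate 2 to -0.0029 without control replicate 3. The log2 ratio of the summed family, -0.20, was -0.024 with total-count scaling, 0.018 with upper-quartile scaling and 0.033 as a share of mouse-named reads. The cause of these moves was not tested. Of 286 refitted values of single rows 262 kept their direction and side of the threshold, 4 newly passed it and 20 turned sign, all uncalled. With total-count scaling these were let-7c-5p at 0.058 in both rows, let-7b-5p at 0.063, let-7d-5p at 0.11 and miR-98-5p at 0.12. With upper-quartile scaling they were let-7i-5p at 0.0099, let-7f-5p at 0.048, let-7c-5p at 0.10 in both rows, let-7b-5p at 0.10, let-7d-5p at 0.15 and miR-98-5p at 0.18, and with rows of one name summed miR-98-5p at 0.0095. With 1 library left out, let-7a-5p ran from -0.079 to 0.42, let-7b-5p from -0.28 to 0.0082, let-7d-5p from -0.091 to 0.027 and miR-98-5p from -0.30 to 0.27. Of the shares within the family, that of let-7f-5p ran from -0.167 to 0.4195 percentage points, let-7i-5p from -0.821 to 0.498 and miR-98-5p from -0.0127 to 0.0983.

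With the replicate number as a block, 0 members were called and their median log2 fold change was -0.10, while over all rows 1 was higher and 1 lower, against 44 and 23 without the block. The deviations of same-numbered libraries from their group means correlated at -0.0545, 0.0266 and -0.0312. With so few libraries per group, these values cannot show whether same-numbered libraries share a culture, an extraction or a batch. Over all rows, leaving out MITF overexpression replicate 3 gave 0 calls, replicate 2 gave 11 higher and 3 lower, and control replicate 2 gave 7 higher and 4 lower, so the background share depends on single libraries. Summing rows of one sequence, and leaving libraries out of the arm and end shares, were chosen after seeing the data. In the latter no share turned sign. The permutation tests of the arm and end shares were not planned.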
